A study of Homo sapiens with 6 samples.

Results

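RAB genes encode the largest family of small GTPases in human cells, and 61 of the 23354 genes in the deposited read-count table belong to it by symbol (RAB, a number and at most a letter and a digit). Within the table the members were taken by symbol, with no threshold on a measured value, but the family was chosen for description with earlier results of these data known. RAB proteins switch between a GTP-bound form on membranes and a GDP-bound form that is held in the cytosol, and in the active form they recruit motors, tethers and other effectors to a vesicle. Each works on its own step of membrane traffic, from the endoplasmic reticulum and Golgi to the cell surface, from the surface into endosomes, and on to lysosomes. In prostate epithelium, whose main task is secretion, the RAB3 and RAB27 proteins are known for their part in granule and vesicle release.

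The RNA came from LNCaP, a human prostate cancer cell line that responds to androgens, grown in medium with fetal bovine serum. In 3 libraries (DHT+WBM) the cells had received dihydrotestosterone (DHT, a potent androgen) at 1 nM and white button mushroom (WBM, Agaricus bisporus) extract at 3 µL/mL for 48 h, and in 3 libraries (DHT) they had received DHT alone at 1 nM for 48 h. By its title the study concerns the effect of the mushroom on androgen signalling, and DHT was present in both groups. The labels do not say whether the DHT cells received a vehicle, or whether the triplicates were separate cultures. The spread that p-values rest on here is that of these libraries and may be technical.

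Totals ran from 19127357 to 21490953 counts per library. All 9 luminal prostate markers were detected, and they did not move together. Among them KLK3, KLK2, TMPRSS2 and HOXB13 were lower in DHT+WBM, KRT8 was higher (log2 fold change 0.20), and FOLH1, KRT18 and EPCAM did not pass. Their summed level was 2926 to 3008 CPM (counts scaled to library size, corrected by the TMM method) in DHT+WBM against 4361 to 4572 CPM in DHT, and most of the gap was KLK3, at 617 ± 6.25 CPM in DHT+WBM and 1683 ± 75.4 CPM in DHT (SD, n = 3 each). The summed levels of the 3 fibroblast markers were 12.9 to 13.9 CPM in DHT+WBM and 13.7 to 15.3 CPM in DHT, with DCN near 0. The 3 leukocyte markers summed to 0.046 to 0.103 CPM in DHT+WBM and 0 to 0.0975 CPM in DHT, the 3 basal markers to 0 to 0.0975 CPM in DHT+WBM and 0.0975 to 0.287 CPM in DHT, and KRT5 was at 0 throughout. The part of these marker differences in the results on RAB genes was not tested. In bulk RNA, fewer cells of a type and less RNA per cell cannot be told apart.

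Of the 61 RAB genes, 52 had enough counts to be tested, and most of them changed little or moderately. With edgeR's quasi-likelihood test and an adjusted p under 0.05 over all 13466 tested genes, 15 RAB genes were higher and 12 lower in DHT+WBM, and 25 did not pass. The called share of 51.9% stands beside 58.2% of all tested genes, of which 29.2% were higher and 29% lower. The split between rises and falls depended on the scaling. Upper-quartile factors gave 21 rises and 12 falls, and library totals without factors gave 23 rises and 11 falls. All tested genes shifted the same way, from 3928 rises and 3909 falls to 4426 and 3403 with upper-quartile factors. With library totals they gave 4675 rises and 3200 falls. The median log2 fold change (DHT+WBM over DHT) was 0.04 for RAB genes and 0.00 for all tested genes. The median size of the change, regardless of sign, was 0.14 for RAB genes and 0.21 for all. A change of at least 1.5-fold was reached by RAB31, RAB6B, RAB36 and RAB39A, 4 of 52 or 7.69%, beside 14.5% of all tested genes, and no RAB gene changed 2-fold. The libraries of the groups did not overlap for 32 of the 52, beside 62.2% of all tested genes.

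**Figure D1:**
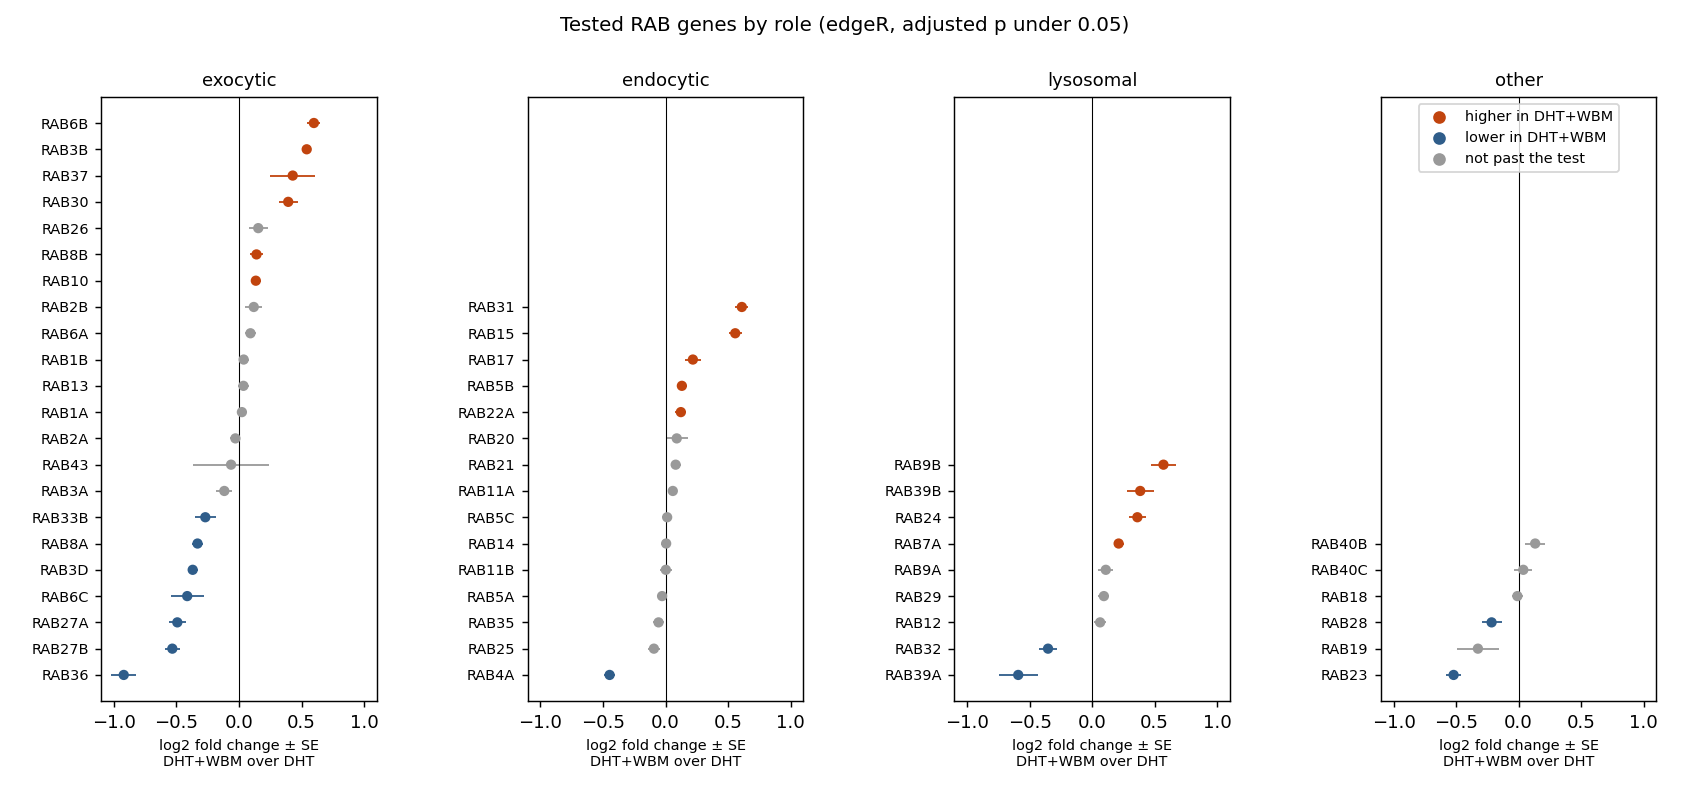
Log2 fold change (DHT+WBM over DHT, horizontal axis) of each of the 52 tested RAB genes, with bars of 1 SE, in panels by role; red points passed the edgeR test as higher, blue points as lower, and grey points did not pass. The exocytic panel holds both large rises and large falls, whereas RAB4A is the single called fall among the endocytic genes.

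The other 9 members were too rare to test. RAB34, RAB38, RAB41, RAB42 and RAB44 had no count in any library, which allows up to 3 counts or 0.138 to 0.154 CPM per library, by counting error alone. RAB3C had 1, 2 and 2 counts in DHT+WBM and 0, 1 and 0 in DHT. RAB33A had 5, 5 and 6 counts in DHT+WBM and 2, 1 and 4 in DHT. RAB40A and RAB4B ranged from 0 to 4 counts. RAB4B lies within the annotated read-through genes MIA-RAB4B and RAB4B-EGLN2, both at 0, and RAB43, tested at 0.83 CPM in DHT+WBM and 0.86 CPM in DHT, lies within ISY1-RAB43. How reads shared with such read-through genes were counted is not given in the sources used here, so these low levels are uncertain.

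Levels between genes were compared per length, as TPM (length-scaled relative abundance) computed from the counts and the gene lengths in the table. TPM carry no TMM factor, so a gene can look higher in DHT+WBM in TPM than in CPM, the scale of the test. RAB7A, the GTPase of late endosomes and lysosomes, had the highest level, at 661 ± 14.7 TPM in DHT+WBM and 548 ± 21.9 TPM in DHT (SD, n = 3 each). RAB1B, which acts between endoplasmic reticulum and Golgi, followed at 411 ± 13.8 TPM in DHT+WBM and 385 ± 18.4 TPM in DHT. The next were RAB10, RAB5C and RAB11A, and the order of the first pair switched between groups. RAB10, which serves transport from the Golgi to the basolateral surface, was at 270 ± 6.97 TPM in DHT+WBM and 236 ± 6.83 TPM in DHT. RAB5C, an early endosome RAB, was at 263 ± 4.04 TPM in DHT+WBM and 250 ± 4.25 TPM in DHT, so in DHT+WBM these neighbours lay within about an SD of each other.

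Together the 9 most abundant RAB genes made up 53% of the summed RAB level, and RAB7A alone 13.4%. The summed RAB level per library was 4604 to 4720 TPM in DHT+WBM and 4312 to 4399 TPM in DHT. By class, the lysosomal RABs summed to 1022 to 1057 TPM in DHT+WBM against 872 to 921 TPM in DHT. The exocytic RABs summed to 1692 to 1731 TPM in DHT+WBM against 1623 to 1637 TPM in DHT, and the endocytic RABs to 1708 to 1746 TPM against 1626 to 1654 TPM. On the TMM-scaled CPM the lysosomal sums were 745 to 774 CPM in DHT+WBM and 648 to 700.1 CPM in DHT. The exocytic sums were 2073 to 2092 CPM in DHT+WBM and 1942 to 1990 CPM in DHT. The endocytic sums came close together, at 1780 to 1802 CPM in DHT+WBM and 1704 to 1763 CPM in DHT. Single abundant genes weighed heavily in these sums. RAB7A alone was at 478 CPM in DHT+WBM and 413 CPM in DHT, and RAB3B at 410 and 281 CPM. By gene, 6 of 22 tested exocytic RABs were called higher and 7 lower (27.3% and 31.8%). Of 9 tested lysosomal RABs, 4 were called higher and 2 lower (44.4% and 22.2%). Over all tested genes these shares were 29.2% and 29%. The sums thus do not stand for a rise of a whole class. These sums are descriptions and were not tested.

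**Figure D2:**
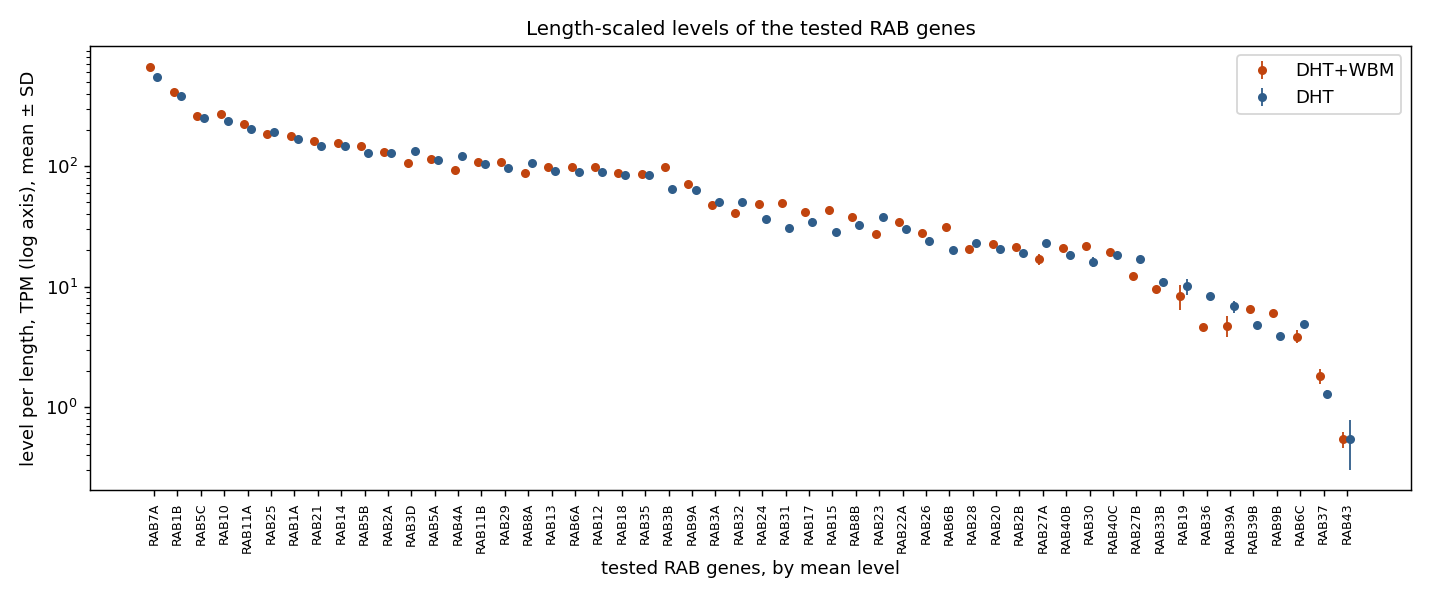
Length-scaled level (TPM, log axis, mean ± SD of 3 libraries) of the 52 tested RAB genes, in order of their mean over all libraries, with DHT+WBM in red and DHT in blue. RAB7A stands at the top in both groups, at 661 and 548 TPM, and RAB43 at the bottom.

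Among the exocytic RABs of post-Golgi secretion, 4 of 11 tested genes rose and 4 fell, 72.7% beside 58.2% of all tested genes. RAB3B and RAB3D, paralogues that act in regulated exocytosis, moved in opposite directions. RAB3B (chromosome 1, 52373628 to 52456436, minus strand, hg19) had 400.4, 405 and 423 CPM in DHT+WBM, against 277, 287 and 281 CPM in DHT. Every DHT+WBM library lay above every DHT library, and the log2 fold change was 0.54 ± 0.04 (SE, edgeR adjusted p = 3.37e-15, the smallest of any RAB gene). RAB3D (chromosome 19, 11432722 to 11450344, minus strand), best known from the secretory granules of exocrine glands, had 150, 152 and 142 CPM in DHT+WBM, against 190, 189 and 195 CPM in DHT. Here the groups were separated the other way, with a log2 fold change of -0.37 ± 0.04. The ratio of RAB3B to RAB3D per length was 0.888, 0.885 and 0.987 in DHT+WBM and 0.485, 0.504 and 0.477 in DHT. RAB3A, the synaptic vesicle member of the subfamily, did not pass, at 23.3 ± 0.74 CPM in DHT+WBM and 25.3 ± 0.38 CPM in DHT.

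Both RAB27 genes fell. Their proteins dock granules, lysosome-related organelles and exosome-bearing endosomes at the plasma membrane. RAB27A (chromosome 15, 55495164 to 55582013, minus strand) had 20.4, 22.4 and 18.5 CPM in DHT+WBM, against 28.2, 27.6 and 30.2 CPM in DHT, a log2 fold change of -0.49 ± 0.07. RAB27B (chromosome 18, 52495708 to 52562747, plus strand) had 27.1, 27.9 and 28.3 CPM in DHT+WBM, against 38.7, 42.9 and 39 CPM in DHT, a log2 fold change of -0.53 ± 0.06. No library of one group reached into the other for either gene, and the ratio of RAB27A to RAB27B per length overlapped between groups, at 1.24 to 1.53 in DHT+WBM and 1.22 to 1.47 in DHT.

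RAB8A, which carries cargo from the Golgi to the surface and the cilium, fell to 104, 106 and 104 CPM in DHT+WBM, against 129, 129 and 136 CPM in DHT (log2 fold change -0.33 ± 0.04). Its paralogue RAB8B was at 59.4 ± 1.22 CPM in DHT+WBM and 53.9 ± 3.93 CPM in DHT (log2 fold change 0.14 ± 0.05), and its libraries overlapped between groups. RAB10 had 323, 337 and 334 CPM in DHT+WBM, against 293, 312 and 301 CPM in DHT, a slight rise (0.13 ± 0.04). RAB37, a granule RAB, passed the test at only 2.67 CPM in DHT+WBM and 1.97 CPM in DHT (0.43 ± 0.18). RAB8B lost its call when DHT replicate 1 (0.13) or 3 (0.09) was left out, and likewise for DHT+WBM replicate 2 (0.12) or 3 (0.13), and under DESeq2. RAB37 lost its call without any single library other than DHT+WBM replicate 3, with log2 fold changes of 0.33 to 0.46, and under DESeq2 and limma-voom. RAB13 (0.04) and RAB26 (0.15), a tight-junction and a granule RAB, did not pass.

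**Figure D3:**
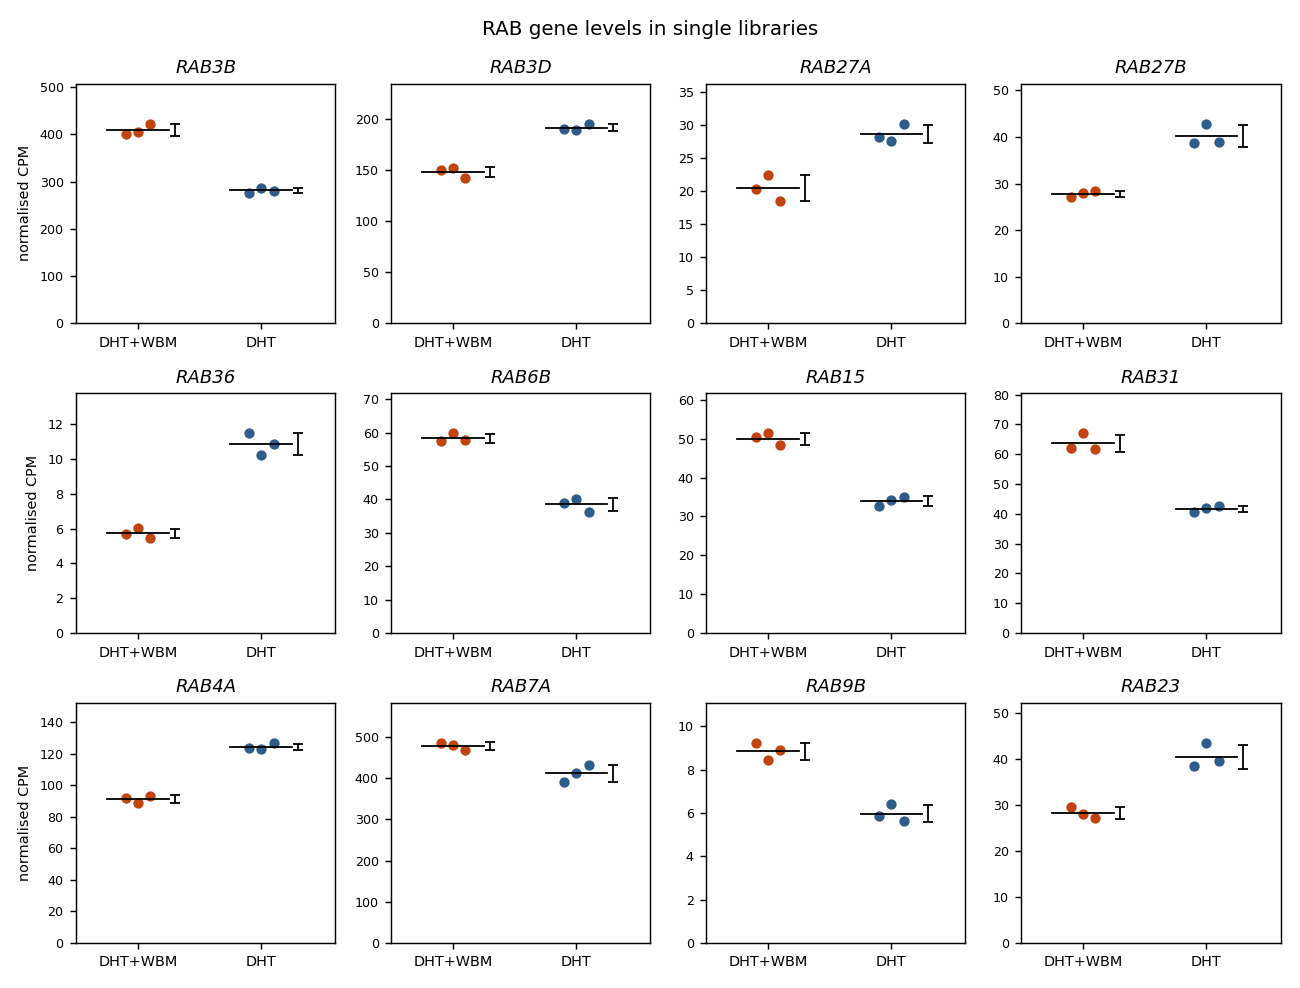
Normalised CPM of 12 RAB genes in each library (points), with DHT+WBM left of DHT in each panel, the group mean as a horizontal line and ± 1 SD as the bar beside it; each vertical axis starts at 0 and has its own scale. All 12 were picked from the called genes, so the separation of the groups in every panel follows largely from that choice. Of all tested genes, 62.2% had no overlap between groups. RAB3B, RAB6B, RAB15, RAB31, RAB7A and RAB9B were higher in DHT+WBM and the other 6 lower.

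In the early secretory pathway and at the Golgi, 2 of 11 tested RAB genes rose and 3 fell (45.5% called, beside 58.2% of all), and the abundant housekeeping members did not pass. RAB36 (chromosome 22, 23487513 to 23506531, plus strand), a Golgi-associated RAB, showed the largest change of any RAB gene. It had 5.7, 6.01 and 5.48 CPM in DHT+WBM, against 11.5, 10.2 and 10.8 CPM in DHT, a 1.89-fold fall (log2 fold change -0.92 ± 0.10, edgeR adjusted p = 3.65e-10). RAB6B (chromosome 3, 133543080 to 133614691, minus strand), the paralogue of the retrograde transport GTPase RAB6A that is best known from brain, rose 1.51-fold. Its libraries had 57.4, 59.8 and 57.7 CPM in DHT+WBM, against 39, 40.1 and 36.4 CPM in DHT, with no overlap.

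The other Golgi calls were smaller. RAB30 rose to 17.6, 17.8 and 18.8 CPM in DHT+WBM, against 15.1, 13.3 and 12.9 CPM in DHT (log2 fold change 0.39 ± 0.08). RAB33B, which links the Golgi with autophagosome formation, fell to 11.2, 12.1 and 12.4 CPM in DHT+WBM, against 13.1, 15.1 and 15 CPM in DHT (-0.27 ± 0.08). RAB6C fell with a log2 fold change of -0.41 ± 0.13, but it is a near-identical retrocopy of RAB6A, and RAB6C-AS1 on the opposite strand overlaps it and moved alike (-0.60), so its reads are uncertain. DESeq2 did not call RAB6C (adjusted p = 0.0624). RAB1A, RAB1B, RAB2A, RAB2B, RAB6A and RAB43 did not pass, with log2 fold changes of -0.06 to 0.12. RAB1B had 271, 252 and 259 CPM in DHT+WBM, against 255, 240.4 and 267 CPM in DHT, and its paralogue RAB1A was 152 ± 4.49 CPM in DHT+WBM and 150 ± 3.95 CPM in DHT.

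Of the endocytic RABs, 5 of 15 tested genes rose and 1 fell. All 5 rises had been placed in the early endosome subset, and the fall in the recycling subset. RAB15 and RAB17, among the rises, also have roles in recycling, so this split depends on how genes were assigned. The called share was 40%, beside 58.2% of all tested genes, and the share that rose 33.3%, beside 29.2%. RAB31 (chromosome 18, 9708228 to 9862553, plus strand), a relative of RAB22A that works between the Golgi and early endosomes, had 62.1, 67 and 61.9 CPM in DHT+WBM, against 40.5, 41.9 and 42.6 CPM in DHT. It was the largest rise of any RAB gene, 1.53-fold (log2 fold change 0.61 ± 0.05). RAB15 (chromosome 14, 65412532 to 65438875, minus strand), a RAB of early and recycling endosomes, had 50.3, 51.4 and 48.3 CPM in DHT+WBM, against 32.6, 34.2 and 35.1 CPM in DHT (0.56 ± 0.05). Both genes were clearly separated between groups.

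The rises of RAB17, RAB5B and RAB22A were smaller. RAB17, which serves transcytosis and recycling in polarised epithelium, had 26.1, 27.4 and 28 CPM in DHT+WBM, against 23, 21.6 and 25.4 CPM in DHT (log2 fold change 0.22 ± 0.07). RAB5B had 261, 259 and 253 CPM in DHT+WBM, against 231, 233 and 241 CPM in DHT (log2 fold change 0.13 ± 0.04). Its paralogues RAB5A and RAB5C did not pass, at -0.03 and 0.01; all these genes encode regulators of early endosome fusion. RAB5C had 175, 173 and 171 CPM in DHT+WBM, against 171, 168 and 175 CPM in DHT, and its groups overlapped. RAB22A was called at 0.12 ± 0.04, a call lost when DHT replicate 1 (0.11) or 3 (0.10) was left out, and likewise for DHT+WBM replicate 1 (0.11) or 3 (0.11). RAB20, RAB21 and RAB35 did not pass, with log2 fold changes of -0.06 to 0.09.

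RAB4A (chromosome 1, 229406809 to 229441640, plus strand), the GTPase of rapid recycling from early endosomes to the surface, had 92.2, 88.4 and 93.2 CPM in DHT+WBM, against 124, 123 and 127 CPM in DHT. The log2 fold change was -0.45 ± 0.04 (edgeR adjusted p = 1.0e-11), and no libraries overlapped. The slow recycling RABs did not follow. RAB11A had 346, 364 and 354 CPM in DHT+WBM, against 337, 344 and 341 CPM in DHT. RAB11B was 57.4 ± 2.91 and 57.3 ± 2.61 CPM, and the epithelial RAB25 65.2 ± 1.31 and 69.5 ± 1.86 CPM in the same order, none past the test. RAB14 did not pass either (0.01), and its span overlaps GSN on the opposite strand, a gene that rose by 0.58.

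Of the lysosomal RABs, 4 of 9 tested genes rose and 2 fell, a called share of 66.7% beside 58.2% of all tested genes. RAB7A (chromosome 3, 128444979 to 128533641, plus strand) had 485, 481 and 468 CPM in DHT+WBM, against 392, 413 and 433 CPM in DHT, a modest but separated rise (log2 fold change 0.21 ± 0.04). RAB9B (chromosome X, 103031504 to 103087212, minus strand), the rarer paralogue of RAB9A in transport from late endosomes to the Golgi, had 9.21, 8.42 and 8.89 CPM in DHT+WBM, against 5.88, 6.39 and 5.61 CPM in DHT (0.57 ± 0.10). RAB9A, at 31.5 ± 1.69 CPM in DHT+WBM and 29.3 ± 0.39 CPM in DHT, did not pass. RAB24, a RAB of autophagic compartments, had 27.2, 24.3 and 24.4 CPM in DHT+WBM, against 19.3, 20.5 and 19.3 CPM in DHT (0.36 ± 0.07).

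The RAB39 paralogues, which act on late endosomes, lysosomes and autophagy, went opposite ways at low levels. RAB39A had 3.36, 2.36 and 2.49 CPM in DHT+WBM, against 4.39, 4.38 and 3.61 CPM in DHT (log2 fold change -0.59 ± 0.16). RAB39B had 7.85, 7.29 and 7.05 CPM in DHT+WBM, against 5.83, 5.34 and 5.8 CPM in DHT (0.38 ± 0.11). RAB32, which directs cargo to melanosomes and other lysosome-related organelles, fell to 15.9, 15.9 and 16.4 CPM in DHT+WBM, against 20.1, 19.9 and 21.5 CPM in DHT (-0.35 ± 0.07), and its close relative RAB38 was not detected. RAB12 and RAB29 did not pass, at 0.06 and 0.09.

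**Figure D4:**
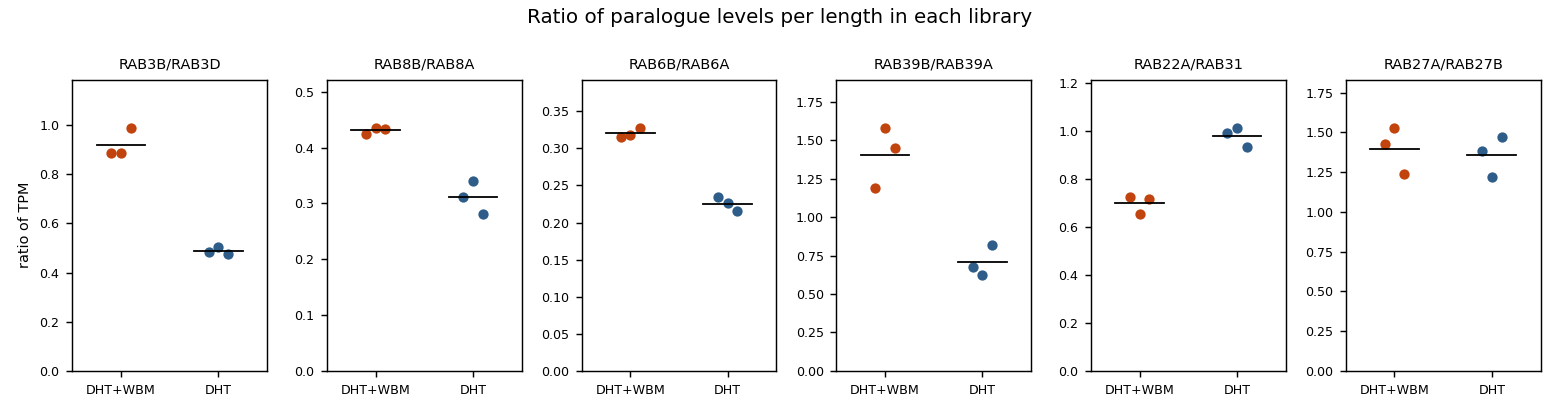
Ratio of the TPM of paralogous or related RAB genes in each library (points; line, mean of 3), with DHT+WBM left of DHT; axes start at 0. The ratio RAB3B/RAB3D was 0.885 to 0.987 in DHT+WBM against 0.477 to 0.504 in DHT, while that of RAB27A/RAB27B overlapped.

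Such unequal change within related genes was also seen per library for RAB8B to RAB8A, with ratios per length of 0.425, 0.435 and 0.433 in DHT+WBM and 0.312, 0.341 and 0.281 in DHT. The ratio of RAB6B to RAB6A was 0.316, 0.318 and 0.327 in DHT+WBM and 0.235, 0.226 and 0.215 in DHT. The ratio of RAB22A to RAB31 was lower in DHT+WBM, at 0.726, 0.652 and 0.719, than in DHT, at 0.991, 1.01 and 0.934. By contrast, the ratio of RAB1A to RAB1B overlapped, at 0.423 to 0.444 in DHT+WBM and 0.425 to 0.459 in DHT, and so did that of RAB11A to RAB11B, at 1.88 to 2.15 and 1.9 to 2.09. These ratios are descriptions, and the pairs were chosen after their values were seen.

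Outside the 3 routes, 2 of 6 tested RAB genes fell (33.3%, beside 29% of all tested genes). RAB23 (chromosome 6, 57053582 to 57087101, minus strand), which restrains Hedgehog signalling at the cilium, had 29.6, 28 and 27.1 CPM in DHT+WBM, against 38.4, 43.4 and 39.6 CPM in DHT (log2 fold change -0.52 ± 0.06). RAB28, another ciliary RAB, had 11.9, 12.3 and 13.1 CPM in DHT+WBM, against 13.9, 15.1 and 14.5 CPM in DHT (-0.22 ± 0.08), and its call was lost without DHT replicate 2 (-0.19) or DHT+WBM replicate 1 (-0.19), and also under DESeq2 (-0.22) and with library totals alone (-0.17). RAB18, which acts at lipid droplets and the endoplasmic reticulum and was the most abundant of this group, had 140.4, 151 and 143 CPM in DHT+WBM, against 140.5, 152 and 145 CPM in DHT, with overlapping groups. RAB19, RAB40B and RAB40C did not pass.

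Promoters were searched for short motifs, and those shown in letters are the called genes that hold the E-box core CACGTG, the centre of the element that the lysosomal regulator TFEB and other basic helix-loop-helix factors bind. The stretches come from RefSeq promoters (GRCh38.p14), end at the base before the annotated start, and are written 5′ to 3′ along the gene, with CACGTG and TGACNNNGC, the core of the antioxidant element bound by NRF2, in capitals on either strand. They are RAB31 at chr18:9708181-9708300 (plus strand), RAB4A at chr1:229270991-229271110 (plus strand) and RAB24 at chr5:177303720-177303879 (minus strand), where the motifs near the end share the bases TG.
RAB31: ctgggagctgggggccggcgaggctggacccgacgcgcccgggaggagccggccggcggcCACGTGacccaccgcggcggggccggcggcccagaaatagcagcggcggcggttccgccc
RAB4A: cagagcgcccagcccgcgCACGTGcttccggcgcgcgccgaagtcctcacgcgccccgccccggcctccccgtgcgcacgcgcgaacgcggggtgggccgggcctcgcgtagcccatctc
RAB24: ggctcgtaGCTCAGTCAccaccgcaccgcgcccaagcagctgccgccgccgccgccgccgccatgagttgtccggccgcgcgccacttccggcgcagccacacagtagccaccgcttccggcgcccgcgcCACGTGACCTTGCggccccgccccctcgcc

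Windows of 250 bases before the start were found for 42 of the 52 tested RAB genes. Each RAB gene entered with 1 promoter, whereas the share of all promoters counts every promoter of the reference, also of untested genes. The sets were not matched for base composition, so a difference between these shares does not show that RAB genes are enriched. CACGTG was in 5 of the 42 (11.9%), beside 6.34% of all 35116 promoters, namely in 2 of 12 genes that rose, 1 of 10 that fell and 2 of 20 not called. The uncalled holders were RAB21 and RAB5A, so the motif was found in promoters of genes that rose, fell and did not pass. TGACNNNGC was in 8 of the 42 (19%), beside 10.9% of all promoters, with 3 among those that rose, 1 among those that fell and 4 among those not called. The full palindromic androgen response element was in 0 of the 42 and in 1 of all promoters. GCGTG, the core bound by the aryl hydrocarbon receptor, was in 15 of the 42 (35.7%), beside 32.2% of all. All motifs were searched on both strands, and a match is a description of the letters, not a binding site.

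Genes that load, switch and read RAB proteins were taken from 6 lists, with 167 genes in the table and 158 tested. Of these, 62 were higher and 26 lower in DHT+WBM, 39.2% and 16.5%, beside 29.2% and 29% of all tested genes. The list of prenylation and membrane cycling had 7 of 18 genes higher and 6 lower (72.2% called, beside 58.2% of all), and a median log2 fold change near 0 (-0.02). GDI2, which extracts GDP-bound RABs from membranes, fell by 0.17 on the log2 scale. The subunits of the RAB prenyltransferase parted, RABGGTA at 0.30 and RABGGTB at -0.25. RABGGTB had 95.7, 90.9 and 97.3 CPM in DHT+WBM, against 112, 114 and 113 CPM in DHT. PRAF2, a small membrane protein related to RAB acceptors, rose to 42.2, 42.4 and 46.5 CPM in DHT+WBM, against 32.9, 29.9 and 35.3 CPM in DHT (0.42 ± 0.06). YIF1B, a Golgi transport gene, fell to 43.9, 44.3 and 45.4 CPM in DHT+WBM, against 54.6, 47.9 and 51.4 CPM in DHT (-0.21 ± 0.05).

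Exchange factors, which load RABs with GTP, were higher in 13 of 34 tested genes and lower in 4. Their called share was 50%, beside 58.2% of all tested genes, with 38.2% higher beside 29.2%, and their median log2 fold change was 0.07. The list also held RAB3GAP1 (0.15, called higher) and RAB3GAP2 (0.08, not called). By name these encode subunits of a GTPase-activating protein of RAB3, so not every member only loads RABs with GTP. ST5, also called DENND2B, showed the largest rise, at 32.5, 31.7 and 32.8 CPM in DHT+WBM, against 15.1, 15.2 and 16.3 CPM in DHT (2.08-fold). ALS2CL, which binds RAB5, rose to 6.63, 5.7 and 6.49 CPM in DHT+WBM, against 3.82, 3.62 and 4 CPM in DHT (log2 fold change 0.72 ± 0.12). RIN2, a RAB5 exchange factor, had 8.09, 7.86 and 7.51 CPM in DHT+WBM, against 9.6, 11.2 and 9.36 CPM in DHT (-0.36 ± 0.10). DENND1A, which acts on RAB35, had 52.7, 56.9 and 54.2 CPM in DHT+WBM, against 59.1, 60.8 and 60.8 CPM in DHT (-0.14 ± 0.05).

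TBC-domain proteins, which stimulate GTP hydrolysis by RABs, were higher in 19 of 35 tested genes and lower in 2. These were 54.3% and 5.71%, beside 29.2% and 29% of all tested genes. The TBC-domain genes had a called share of 60%, beside 58.2% of all. Their median log2 fold change was 0.15, beside 0.00 over all tested genes. The changes were small, with 0 genes of the list at 1.5-fold, and DESeq2 called 13 members in place of 21. Over all genes DESeq2 also called fewer, 3134 higher and 3356 lower in place of 3928 and 3909. The largest rises were those of TBC1D22A and EVI5L. TBC1D22A had 31.7, 27.8 and 30.02 CPM in DHT+WBM, against 20.8, 21 and 24.9 CPM in DHT (0.42 ± 0.07). EVI5L had 42, 40 and 40.01 CPM in DHT+WBM, against 34, 29.6 and 32.2 CPM in DHT (0.35 ± 0.06). TBC1D4, known in muscle and fat as the insulin-regulated brake on RAB8A and RAB10, fell to 35, 34.7 and 33.7 CPM in DHT+WBM, against 48.8, 50.7 and 49.4 CPM in DHT (-0.53 ± 0.05). TBC1D30 was the other fall, at 51, 50.8 and 50.7 CPM in DHT+WBM, against 57.6, 62.9 and 60.2 CPM in DHT (-0.24 ± 0.05).

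**Figure D5:**
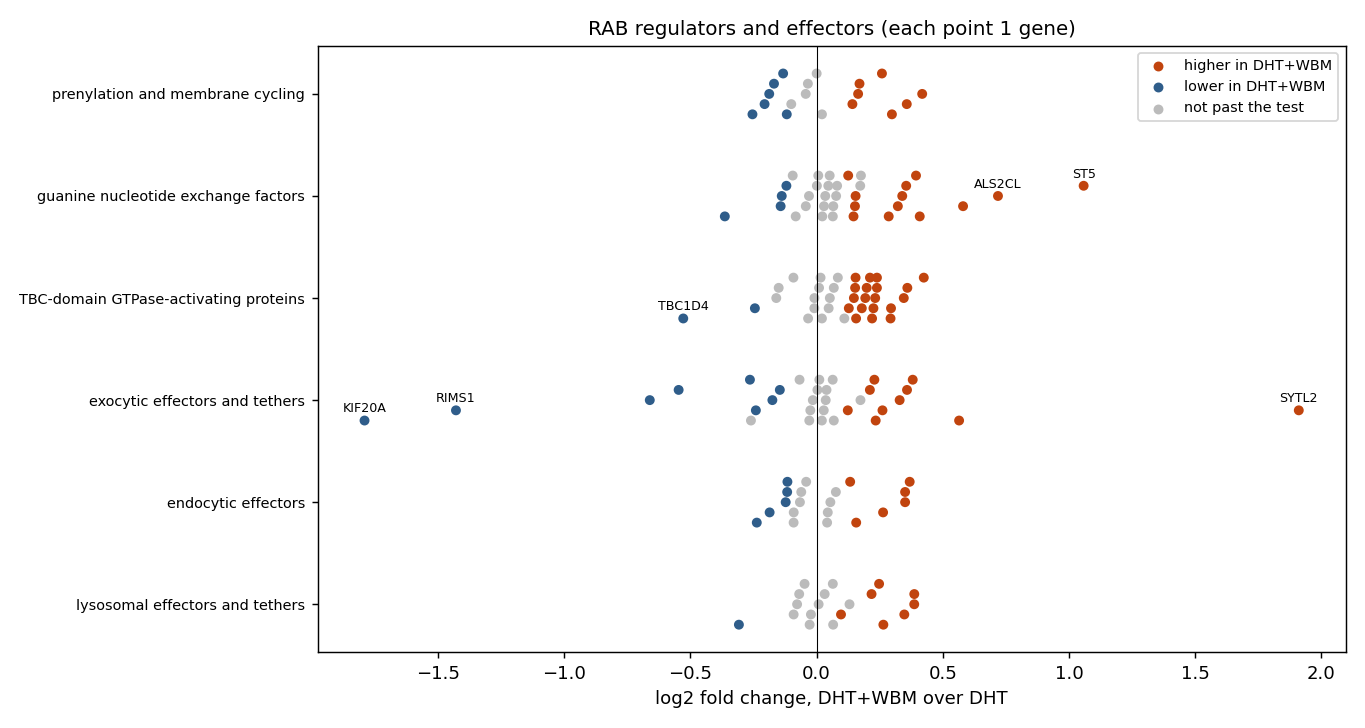
Log2 fold change (DHT+WBM over DHT) of the 158 tested regulators and effectors of RAB proteins, 1 point per gene, by list (rows; vertical scatter within a row has no meaning), with red points called higher, blue called lower and grey not called. SYTL2 lies far to the right and KIF20A and RIMS1 far to the left in the exocytic row, and the points of the TBC-domain row lie mostly right of 0.

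The exocytic effectors held the widest range, with 10 of 32 tested genes higher and 8 lower (56.2% called, beside 58.2% of all) around a median of 0.03 (log2). SYTL2 (chromosome 11, 85405265 to 85522178, hg19), a synaptotagmin-like protein that binds RAB27 on vesicles, had 519, 541 and 545 CPM in DHT+WBM, against 149, 149 and 129 CPM in DHT. This 3.76-fold rise (log2 fold change 1.91 ± 0.05, edgeR adjusted p = 4.28e-30) stood beside the falls of RAB27A and RAB27B themselves. RIMS1, a RAB3 effector of the exocytic active zone, went the other way, at 6.53, 7.6 and 6.03 CPM in DHT+WBM, against 15.7, 19.4 and 19.1 CPM in DHT (-1.43 ± 0.10). KIF20A, a kinesin that binds RAB6 at the Golgi and also works in cytokinesis, fell to 23.8, 20 and 22.9 CPM in DHT+WBM, against 74.5, 78 and 78.8 CPM in DHT (-1.79 ± 0.06).

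Other RAB27 partners, named after their values were seen, were divided. EXPH5, MYRIP and MLPH, which link RAB27 to vesicles and myosin motors, fell with log2 fold changes of -0.66, -0.55 and -0.26. MYO5A, the myosin that MLPH recruits, rose (0.36), as did SYTL4 (0.21) and SYTL3, near 1 CPM (0.56), while SYTL1 (0.04) and UNC13D (-0.26) did not pass and SYTL5 had too few counts to test. RPH3AL, an effector of RAB3 and RAB27, rose to 27.1, 24.7 and 22.9 CPM in DHT+WBM, against 19.1, 18.8 and 19.3 CPM in DHT (0.38 ± 0.07). Of the 9 exocyst genes, which encode the tether of post-Golgi vesicles, EXOC3 and EXOC6 rose (0.33 and 0.23) and EXOC4 fell (-0.24). The other members, EXOC1, EXOC2, EXOC5, EXOC6B, EXOC7 and EXOC8, did not pass (-0.07 to 0.17).

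Endocytic effectors were divided, with 6 of 20 higher and 5 lower (55% called, beside 58.2% of all), and 7 called without DHT replicate 1. EEA1 and APPL1, which read RAB5 on early endosomes, both fell. EEA1 had 70, 71.4 and 70.8 CPM in DHT+WBM, against 81.5, 89.8 and 78.8 CPM in DHT (-0.24 ± 0.05). APPL1 had 134, 144 and 130 CPM in DHT+WBM, against 151, 160.4 and 152 CPM in DHT (-0.19 ± 0.04). The largest rises were in a tether subunit of early endosomes and a RAB11 effector. VPS8, the tether subunit, had 80.1, 78.7 and 82.5 CPM in DHT+WBM, against 61.7, 61.3 and 64 CPM in DHT (0.37 ± 0.05). RAB11FIP4, the RAB11 effector, had 50.2, 49.4 and 44.8 CPM in DHT+WBM, against 36, 40.2 and 37 CPM in DHT (0.35 ± 0.06).

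Lysosomal effectors and tethers were higher in 7 of 19 tested genes and lower in 1 (42.1% called, beside 58.2% of all), and DESeq2 called 5 in place of 8. VPS41, a tether subunit of late endosomes, had 120, 118 and 123 CPM in DHT+WBM, against 89.6, 92.8 and 92.8 CPM in DHT (0.39 ± 0.04). PLEKHM1, a RAB7 effector in lysosome fusion, had 22.1, 21.2 and 21.9 CPM in DHT+WBM, against 15.9, 16.6 and 17.4 CPM in DHT (0.39 ± 0.07). Both were called higher, as was RAB7A, but 11 of the 19 tested genes of the list did not pass. VPS11 is a core subunit shared by the late endosomal tether and the early endosomal tether that holds VPS8. It fell to 19.9, 18.6 and 18.7 CPM in DHT+WBM, against 24.1, 23.1 and 23.5 CPM in DHT (-0.31 ± 0.07).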

How the data were processed

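For 6 libraries (3 DHT+WBM, 3 DHT) the authors deposited whole-number gene counts, not normalized, with each gene's position and length (in kb), per the file headers. The submitters' processing notes name bcl2fastq 2.18.0.12, STAR 2.6.0, HTSeq 0.6.0, edgeR 3.28.1 and hg19, with no role or order. The sources used here do not state the annotation, strand setting or filters. Without known strand use, reads of overlapping opposite genes cannot be told apart, and reads of near-identical copies can be miscredited.

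Groups came from sample titles, and table columns were matched by the code in each title. The test used edgeR 4.0.16 under R 4.3.3. Its filterByExpr step (minimum count 10, minimum total 15) left 13466 genes, TMM factors were 0.979 to 1.019, and the quasi-likelihood F-test (no direction preset) had no covariate. P-values were adjusted by Benjamini-Hochberg over all tested genes, with 0.05 as the threshold. CPM are TMM-scaled, and TPM were computed from counts and the table's lengths. The fit was tested on simulated data with known changes. Replicates differed by more than counting noise (common coefficient of variation 3.39%), so none was merged.

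The RAB genes, their role classes and the lists were chosen with earlier results of these data known. Roles come from general knowledge. Named with values were, per role subset, up to 4 called members with the largest change and a mean of at least 5 CPM, and the member most abundant per length, and from each regulator list up to 2 rises and 2 falls. Others were named after their values were seen. A regulator meeting this rule is not reported here. No set test was run. Alternatives were other scalings and filters, DESeq2 1.42.0, limma-voom (limma 3.58.1), a replicate block, stricter thresholds and each library left out.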

Additional observations from a re-analysis of the deposited data

How the results depend on the processing

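Of the 27 called RAB genes, 22 were called in all 14 alternative fits and none reversed. The 5 that lost the call in at least 1 fit were RAB6C, RAB8B, RAB22A, RAB28 and RAB37. DESeq2 dropped all of these but RAB22A, and limma-voom dropped RAB37. In turn, 9 uncalled genes were called in at least 1. At an adjusted p under 0.01, 23 stayed called, beside 3155 higher and 3190 lower among all tested genes. With library totals alone, 23 RAB genes were higher, 1 of the RABs outside the 3 routes was called and the median RAB log2 fold change was 0.084, where the median of all genes moved to 0.05. DESeq2 called 1 of the RABs outside the 3 routes, 13 TBC-domain genes and 5 lysosomal effectors, with 3134 higher and 3356 lower genes in all. At an adjusted p under 0.01, 1 of the RABs outside the 3 routes, 13 TBC-domain genes and 7 endocytic effectors were called. With a minimum of 1.5-fold, which by construction drops small changes, 2 RAB genes were higher and 2 lower, among 1088 higher and 870 lower genes in all. These were 2 exocytic, 1 endocytic, 1 lysosomal and 0 other RABs, and by list 0 prenylation, 2 exchange factor, 0 TBC-domain, 4 exocytic, 0 endocytic and 0 lysosomal effector genes.

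Leaving out each library in turn gave 12 to 16 RAB genes higher and 11 to 13 lower. The same fits gave 3440 to 3791 higher and 3642 to 3789 lower among all tested genes. They called 1 to 3 RABs outside the 3 routes and 7 to 12 endocytic effectors. The cause of these moves was not tested. Same-numbered libraries showed no clear pairing. Their deviations from their group means correlated by only 0.05, 0.04 and 0.02, and not every library correlated best with its own number. The labels do not state a pairing, and such low correlations cannot tell whether the cultures were paired. With a replicate block, 17 RAB genes were higher and 12 lower, beside 4079 higher and 4030 lower among all tested genes. Depth limits genes with few counts such as RAB43 and RAB37, with means of 0.84 and 2.32 CPM over all libraries, whose SE were 0.31 and 0.18.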
